A study of Mus musculus with 4 samples.

Results

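Genes that copy the genome and genes that divide it were followed as a group of 40 in mouse colony-forming cells, 19 of them acting in S phase and 21 in G2 and M phase. They are listed by name, were matched through the array annotation, and were chosen with earlier results of these data known. Of the 40, 39 were measured among 19938 named genes: all 19 S phase genes and 20 of the G2 and M phase genes, while the cyclin gene Ccnb1 was not analysed here. The colonies grew from C57BL/6 blood stem cells of a long-term kind (LT-HSC) or a short-term kind (ST-HSC), named for the time over which each can rebuild blood in a recipient. Before culture the cells were transduced either with CreER, a Cre enzyme whose activity is controlled by an oestrogen receptor ligand, or with mock, in a series about the leukaemia fusion MLL-ENL under conditional control. The 4 groups (LT-HSC CreER, LT-HSC mock, ST-HSC CreER, ST-HSC mock) shared the culture conditions: methylcellulose with serum and the cytokines GM-CSF, SCF, IL-6 and IL-3. Each group is 1 array, and the labels used here do not say whether cells of several animals were pooled or what was done to activate CreER. No difference between arrays therefore has a replicate check, and no pairwise difference below was tested.

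A dividing cell loads the MCM helicase onto replication origins in G1 with the help of Cdc6 and Cdt1, copies its DNA in S phase, and then separates the copies in mitosis under the control of cyclin B with Cdk1, the Aurora and Polo kinases and the spindle checkpoint. Most genes of the early programme are targets of E2F factors, which are released when the retinoblastoma protein is phosphorylated. Most genes of the late programme are repressed by the DREAM complex in resting cells and activated by B-Myb and FoxM1, through CHR promoter elements. Many of these promoters also hold CCAAT elements. In bone marrow these programmes are active in expanding progenitors and are shut off as granulocytes and macrophages mature, and a colony holds cells of both kinds.

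Values are log2 signals per probe set, so a difference of 1 is 2-fold. Where 4 levels of a gene are listed, the ST-HSC arrays come first and mock precedes CreER. The signal floor was the median of an array's named probe sets (8.07 to 8.13), and each of the 39 genes lay above it on all 4 arrays. The probe set with the highest mean stood for a gene. Where a second probe set of a gene existed, its LT-HSC CreER minus LT-HSC mock difference was similar for Pcna (0.22 against 0.23), Slbp (0.31 against 0.33) and Tk1 (0.45 against 0.52). The levels of the second probe set were lower for Slbp (10.39, 10.49, 10.12 and 10.43) and Tk1 (10.22, 10.11, 9.77 and 10.23). For Tk1 its LT-HSC CreER minus ST-HSC CreER difference was 0.11 against 0.19. A second probe set of Top2a read between 5.07 and 5.50, far under the floor, and was not used. Markers of the progenitor and primary granule list were above the floor for 7 or 8 of 8 genes on every array and those of neutrophil maturation for 11 of 11, whereas 0 of 4 measured T and NK cell markers were.

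The LT-HSC mock array carried the least RNA of replication and mitosis genes, and the LT-HSC CreER array carried more. The LT-HSC mock array was the lowest of the 4 for 37 of the 39 genes, against 28.1% of the 10411 genes above the floor on some array. The exceptions, Mcm6 and Cdt1, were lowest on ST-HSC CreER. The ST-HSC mock array was highest for 3 genes (Cdc6, Bub1 and Cenpe), against 27.2% of all genes. The LT-HSC CreER array was the highest for 24 of the 39, against 20.8% of all genes, but not equally in both phases: it was highest for 16 of 19 S phase genes and for 8 of 20 G2 and M phase genes, of which 10 were highest on ST-HSC CreER (12 of all 39, against 23.3%). With each gene centred on its own mean, the median deviations of S phase genes were 0.02, 0.03, -0.19 and 0.18 in array order. Those of G2 and M phase genes were 0.04, 0.11, -0.24 and 0.10. In bulk RNA, fewer cycling cells and less of these transcripts per cell cannot be told apart.

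**Figure D1:**
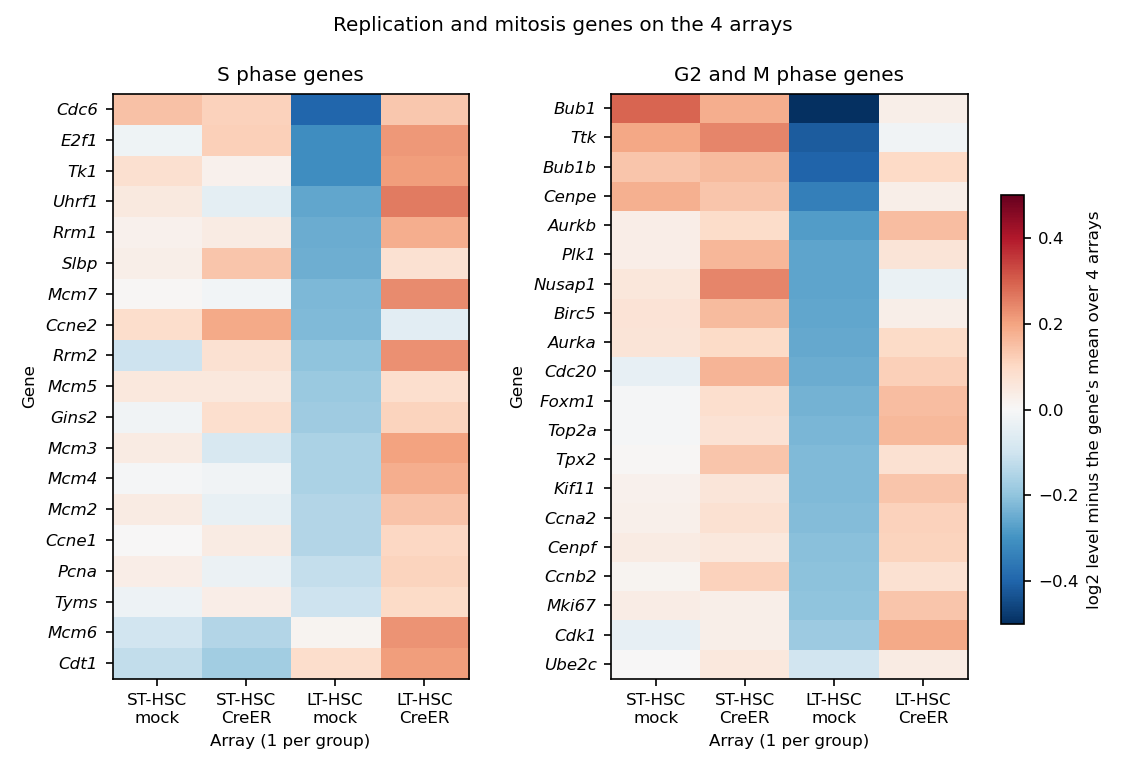
Each cell is 1 gene on 1 array, coloured by its log2 level minus the gene's own mean over the 4 arrays, with S phase genes on the left and G2 and M phase genes on the right, ordered by the LT-HSC mock column. The LT-HSC mock column is the lowest for 37 of 39 genes, and the LT-HSC CreER column is the highest for 16 of 19 S phase genes but for 8 of 20 G2 and M phase genes.

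Promoter words were counted as a description, with no test between the phases. RefSeq promoters of build GRCm38.p6 were held for 33 of the 40 genes, and the 250 bases before each listed start were searched on both strands for E2F words (TTTCCCGC, TTTGGCGC, TTTCGCGC and TTTGCCGC), for the CHR word TTTGAA and for CCAAT. An E2F word was found in 5 of 16 S phase genes (31.2%; Mcm5, Mcm6, Mcm7, Cdc6 and Uhrf1), in 1 of 17 G2 and M phase genes (Cdk1) and in 2.16% of 27025 genes in the table (1.86% of 32851 promoters). The CHR word was found in 7 of 17 G2 and M phase genes (41.2%; Mki67, Top2a, Ccnb2, Cdk1, Cdc20, Ube2c and Kif11), in 1 of 16 S phase genes (Mcm2) and in 18.3% of all genes (16.0% of promoters). CCAAT was found in 15 of 17 G2 and M phase genes (88.2%), in 10 of 16 S phase genes (62.5%) and in 37.5% of all genes (33.8% of promoters). E2F words on opposite strands overlapped in Mcm5 and Mcm6. A match is a run of letters and not a shown binding site, and no match says only that these letters are not in this window. 5 promoters are printed 5′ to 3′, ending at the base before the start, with matches in capitals: the helicase gene Mcm6 shows E2F words, the kinase gene Cdk1 holds all 3 kinds, Ccnb2 is the mitotic cyclin gene measured, with CHR and CCAAT words, Bub1 is the gene with the widest range over the arrays, and Mcm2 is the S phase gene with a CHR word. They lie on the minus strand at chr1:128359706-128359955 (Mcm6), chr6:88898781-88899030 (Mcm2), chr10:69352913-69353162 (Cdk1), chr9:70421555-70421804 (Ccnb2) and chr2:127831860-127832109 (Bub1).
Mcm6: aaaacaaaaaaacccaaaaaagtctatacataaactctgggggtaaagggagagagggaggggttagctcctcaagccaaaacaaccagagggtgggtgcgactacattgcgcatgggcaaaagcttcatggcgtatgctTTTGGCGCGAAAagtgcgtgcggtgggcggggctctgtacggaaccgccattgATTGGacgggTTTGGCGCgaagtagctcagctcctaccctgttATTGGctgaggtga
Mcm2: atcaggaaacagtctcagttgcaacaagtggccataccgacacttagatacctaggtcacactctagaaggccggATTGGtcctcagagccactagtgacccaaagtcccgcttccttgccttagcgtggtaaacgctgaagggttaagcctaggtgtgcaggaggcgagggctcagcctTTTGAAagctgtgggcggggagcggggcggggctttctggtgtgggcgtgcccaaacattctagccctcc
Cdk1: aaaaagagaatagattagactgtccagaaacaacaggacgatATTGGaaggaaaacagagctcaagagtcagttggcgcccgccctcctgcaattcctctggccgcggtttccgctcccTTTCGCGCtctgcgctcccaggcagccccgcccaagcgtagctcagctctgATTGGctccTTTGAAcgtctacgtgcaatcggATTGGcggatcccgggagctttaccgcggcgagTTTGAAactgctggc
Ccnb2: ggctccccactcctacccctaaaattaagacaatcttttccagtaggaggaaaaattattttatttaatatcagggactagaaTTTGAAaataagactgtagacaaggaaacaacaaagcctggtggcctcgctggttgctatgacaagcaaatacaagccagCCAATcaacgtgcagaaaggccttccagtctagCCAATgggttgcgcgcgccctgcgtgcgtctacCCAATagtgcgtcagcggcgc
Bub1: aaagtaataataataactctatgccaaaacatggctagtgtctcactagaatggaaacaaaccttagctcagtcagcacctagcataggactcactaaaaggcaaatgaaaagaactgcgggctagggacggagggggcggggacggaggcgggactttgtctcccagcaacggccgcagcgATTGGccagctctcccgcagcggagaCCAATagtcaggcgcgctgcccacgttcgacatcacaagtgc

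Each of the 39 listed transcripts was more abundant in LT-HSC colonies with CreER than with mock, by 1.09-fold for Cdt1 to 1.44-fold for E2f1, Cdc6, Tk1 and Bub1. All 39 genes were above 0, against 44.4% of 10172 genes above the floor, and 25 of 39 were at least 25% higher, against 5.98% of all genes. None was 2-fold apart, against 0.875% of all genes. The median difference was 0.33 over S phase genes and 0.35 over G2 and M phase genes, against -0.03 over all genes and -0.04 over the 7755 genes whose mean level lay within the range of the 39 (8.78 to 12.60). The phases thus differed by 0.03 in their medians here. The 1027 olfactory receptor genes, a family with little expression in blood cells, had a median of 0.09 in this comparison without the floor, with 68.9% above 0, and the part of such a shift was not tested.

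Among the genes that license origins and unwind DNA, the MCM subunits, which form the ring-shaped helicase, moved together in this comparison. Mcm7 read 11.50, 11.48, 11.27 and 11.73, so the ST-HSC arrays lay between the LT-HSC arrays. Mcm3 read 10.59, 10.47, 10.39 and 10.75, with the same order of the LT-HSC arrays at the ends. Mcm2 (11.28, 11.20, 11.09 and 11.38), Mcm4 (11.11, 11.10, 10.96 and 11.30) and Mcm5 (11.42, 11.42, 11.18 and 11.45) did the same. The differences of LT-HSC CreER from LT-HSC mock ran from 0.21 (Mcm6) to 0.46 (Mcm7) over the 6 subunits. Of these, 3 were at least 25% higher, against 5.98% of all genes. Mcm6 broke the order of the arrays: it read 11.07, 11.02, 11.18 and 11.39, higher on both LT-HSC arrays. The helicase loaders Cdc6 and Cdt1 did not share a pattern. Cdc6 stood at 8.92, 8.89, 8.38 and 8.91: 3 arrays lay within 0.03 and LT-HSC mock stood below them. Cdt1 stood at 10.21, 10.16, 10.42 and 10.54, so both LT-HSC arrays lay above both ST-HSC arrays, with CreER minus mock of 0.12 in LT-HSC-derived cells. Gins2, a subunit of the helicase activator GINS, and Pcna, the clamp that tethers polymerases to DNA, were higher by 0.29 and 0.23. Gins2 read 9.79, 9.89, 9.63 and 9.92, and Pcna 12.48, 12.42, 12.33 and 12.56, both lowest on LT-HSC mock and highest on LT-HSC CreER.

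Enzymes that make deoxynucleotides differed by 0.20 to 0.52 between the LT-HSC arrays, CreER being above mock. Tk1, the thymidine kinase of dividing cells, read 10.50, 10.44, 10.11 and 10.63. Rrm2, the regulated subunit of ribonucleotide reductase, read 11.92, 12.10, 11.82 and 12.25, highest on the CreER array of each population. Rrm1, the large subunit, was higher by 0.43, as was Rrm2, while Tyms, which makes thymidylate, was higher by 0.20. Rrm1 read 11.92, 11.94, 11.65 and 12.08, and Tyms 10.52, 10.58, 10.44 and 10.64. The LT-HSC arrays held both the lowest and the highest level of each of these enzymes. Of the regulators of S phase entry, E2f1 was at 10.33, 10.47, 10.04 and 10.57, lowest on LT-HSC mock. The E cyclins, partners of Cdk2 at the start of S phase, moved less: Ccne1 (10.48, 10.52, 10.33 and 10.58) was higher by 0.25 and Ccne2 by 0.16. Ccne2 was at 10.03 and 10.13 on the ST-HSC mock and CreER arrays against 9.72 and 9.89 on the LT-HSC mock and CreER arrays, the reverse of Cdt1. Uhrf1, which guides maintenance of DNA methylation at replication forks, was at 10.58, 10.48, 10.27 and 10.79, and was higher by 0.52. Slbp, which binds the stem-loop of histone mRNA, was at 10.58, 10.69, 10.31 and 10.63, and was higher by 0.33.

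Of the G2 and M phase genes 15 of 20 were at least 25% higher in this comparison, against 5.98% of all genes. The quartiles of the 20 were 0.32 and 0.39, and the range was 0.14 to 0.53. The 3 spindle checkpoint kinase genes were among the highest. Bub1, a kinase at unattached kinetochores, read 11.61, 11.50, 10.82 and 11.35, a range of 0.79 that was the widest of the 39 genes. Bub1b, which encodes the checkpoint protein BubR1, read 10.73, 10.75, 10.19 and 10.69. Ttk, the kinase Mps1, read 9.31, 9.36, 8.70 and 9.10. For all 3 the LT-HSC CreER array lay above LT-HSC mock (by 0.53, 0.50 and 0.41) and below both ST-HSC arrays. Cenpe, a kinetochore motor, followed the same order at 10.23, 10.19, 9.71 and 10.08.

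Mitotic kinases and their partners differed by less between arrays. Aurkb, the catalytic subunit of the chromosomal passenger complex, was at 11.94 on ST-HSC mock and 0.06 higher with CreER, and at 11.63 and 12.06 on the LT-HSC arrays. Birc5, which encodes its partner survivin, was at 10.25, 10.34, 9.92 and 10.21. Both were lowest on LT-HSC mock, and LT-HSC CreER was the highest array for Aurkb but not for Birc5. Between the LT-HSC arrays CreER exceeded mock by 0.44 for Aurkb, 0.35 for Aurka, 0.33 for the Polo kinase gene Plk1 and 0.30 for Birc5. Aurka read 10.74, 10.77, 10.42 and 10.77, and Plk1 read 11.97 and 12.10 on the ST-HSC arrays and 11.67 on LT-HSC mock. Cdk1, the kinase of mitotic entry, read 11.86, 11.93, 11.72 and 12.09, and was higher by 0.37. Its cyclin partners Ccna2 and Ccnb2 were higher by 0.32 and 0.27, and the transcription factor gene Foxm1 by 0.39. Ccna2 read 12.35, 12.40, 12.11 and 12.44, Ccnb2 12.34, 12.44, 12.12 and 12.40, and Foxm1 10.06, 10.15, 9.83 and 10.22. Of these, Ccnb2 alone was highest on ST-HSC CreER. Mki67, whose product coats mitotic chromosomes, read 12.64, 12.63, 12.40 and 12.74, and Top2a, which untangles sister chromatids, read 11.73, 11.81, 11.51 and 11.90 and was higher by 0.39. The factors that end mitosis differed from each other: Cdc20, an activator of the anaphase-promoting complex, was higher by 0.38, and Ube2c, a ubiquitin-conjugating enzyme of that complex, by 0.14, the smallest of the 20. Cdc20 read 10.14, 10.35, 9.93 and 10.30, and Ube2c 11.48, 11.53, 11.38 and 11.52, both highest on ST-HSC CreER. Of the spindle proteins, Kif11 was higher by 0.36, Cenpf by 0.32, Tpx2 by 0.30 and Nusap1 by 0.24. The motor gene Kif11 read 11.51, 11.55, 11.27 and 11.63, and the kinetochore gene Cenpf 9.49, 9.50, 9.24 and 9.56, both highest on LT-HSC CreER. Tpx2, which activates Aurora A, read 10.42, 10.55, 10.19 and 10.49, and Nusap1, a microtubule bundler, 11.25, 11.44, 10.93 and 11.16, both highest on ST-HSC CreER.

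In ST-HSC-derived cells the same genes hardly differed between CreER and mock. The 39 differences ran from -0.11 (Mcm3 and Bub1) to 0.21 (Cdc20), and 0 of 39 were at least 25% higher or at least 20% lower (the same fold), against 4.28% and 3.93% of 10047 genes; 0 were 2-fold apart, against 0.518%. Of the S phase genes 9 of 19 were above 0 (median -0.02), and of the G2 and M phase genes 17 of 20 (median 0.06), against -0.03 and 42.6% over all genes. Within S phase the MCM subunits and licensing factors were at or below 0, with 1 of 8 above 0 (Mcm5, at 0.002), whereas the E2F and cyclin E genes were above it: E2f1 by 0.15, Ccne2 by 0.10 and Ccne1 by 0.04. Rrm2 was higher by 0.18 and Slbp by 0.12, and Uhrf1 differed by -0.10. Among G2 and M phase genes Nusap1 was higher by 0.19, Plk1 and Tpx2 by 0.13, and those below 0 were Bub1, Cenpe (-0.04) and Mki67 (-0.01). The CreER difference was larger in LT-HSC-derived than in ST-HSC-derived cells for 39 of 39 genes, against 48.9% of 10411 genes, with a median gap of 0.30 and a range of 0.05 (Nusap1) to 0.63 (Bub1). This gap uses all 4 arrays and leaves no residual, so it could not be tested.

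**Figure D2:**
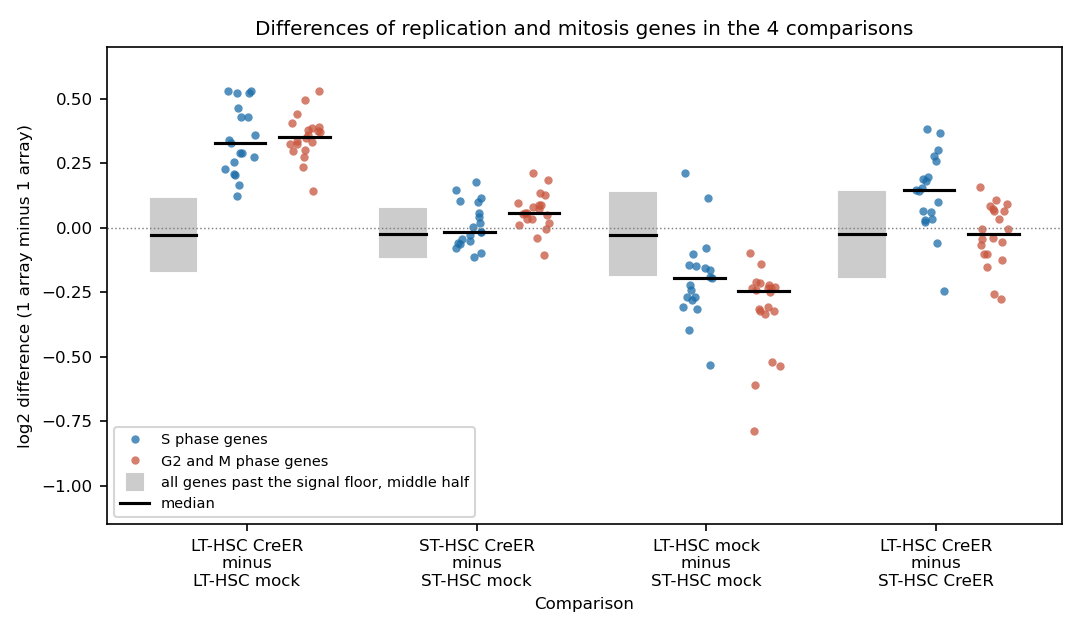
Points are the 39 genes in each of the 4 comparisons (y axis, log2 difference of 1 array from another), S phase genes in blue and G2 and M phase genes in red, with black lines at the medians; the grey box spans the lower to the upper quartile of all genes past the signal floor. All 39 genes lie above 0 for LT-HSC CreER minus LT-HSC mock, and the phases separate most for LT-HSC CreER minus ST-HSC CreER, with medians of 0.14 and -0.02.

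Among mock-transduced cells, those from LT-HSC carried less of 37 of 39 replication and mitosis transcripts than those from ST-HSC, and spindle checkpoint genes differed most. Of all 10208 genes compared, 54.9% were below 0 and 45.1% above, and 9 of 39 members were at least 20% lower, against 11.7% of all genes; 0 were 2-fold apart, against 3.12%. Bub1 was 1.73-fold lower (-0.79), Ttk 1.53-fold (-0.61), Bub1b 1.45-fold (-0.54), Cdc6 1.45-fold (-0.53) and Cenpe 1.44-fold (-0.52). Tk1 (-0.40), Birc5 (-0.33), Nusap1 (-0.33) and Aurka (-0.32) were also past 20%. Above 0 were Cdt1 at 0.21 and Mcm6 at 0.11. The medians were -0.20 over S phase genes and -0.24 over G2 and M phase genes, against -0.03 over all genes. All 3 checkpoint genes were past 20%, and of the S phase genes 2 of 19 (Cdc6 and Tk1) were, a share near that of all genes. This difference and that of CreER from mock in LT-HSC-derived cells share the LT-HSC mock array, so they are not separate observations.

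With CreER, most S phase transcripts were higher in LT-HSC-derived than in ST-HSC-derived cells, by a small margin that depended on the scaling. G2 and M phase transcripts were higher in a share near that of all genes. In this comparison, which does not use the LT-HSC mock array, 17 of 19 S phase genes and 8 of 20 G2 and M phase genes were above 0, against 46.1% of 10189 genes. When each array was centred on its median over all genes these counts were 12 and 5, against 35.1% of all genes. Under quantile normalization they were 17 and 10, against 49.9% of all genes. The medians were 0.14 and -0.02, against -0.02 over all genes, a gap of 0.17 that ran from 0.15 to 0.18 over the alternatives tried. The S phase median was 0.08 with centred arrays. Olfactory receptor genes, without the floor, had a median of 0.07 with 64.8% above 0, and the part of such a shift was not tested. 17 of 19 S phase genes lay above the G2 and M phase median, 1 of 20 G2 and M phase genes lay above the S phase median, and 8 S phase genes lay above every G2 and M phase gene. At least 25% higher were Cdt1 (0.38) and Mcm6 (0.37), against 9.37% of all genes, and 0 of 39 were at least 20% lower, against 12.7%; 0 were 2-fold apart, against 1.94%. With each array centred, 0 members were at least 25% higher and 2 were at least 20% lower. All 6 MCM subunits were above 0, from 0.03 (Mcm5) to 0.37, with Mcm3 at 0.28 and Mcm7 at 0.26, and so were all 4 nucleotide enzymes, from 0.06 (Tyms) to 0.19 (Tk1). Uhrf1 was higher by 0.30. The S phase genes below 0 were Ccne2 (-0.25) and Slbp (-0.06). On the mitotic side all 3 checkpoint genes were below 0 (Ttk at -0.26, Bub1 at -0.15 and Bub1b at -0.06), as were Nusap1 (-0.27), Birc5 (-0.12), Plk1 and Cenpe (both -0.10). The G2 and M phase genes above 0 were Cdk1 (0.16), Mki67 (0.11), Top2a (0.09), Kif11 (0.08), Foxm1 and Aurkb (0.07), Cenpf (0.06) and Ccna2 (0.03).

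**Figure D3:**
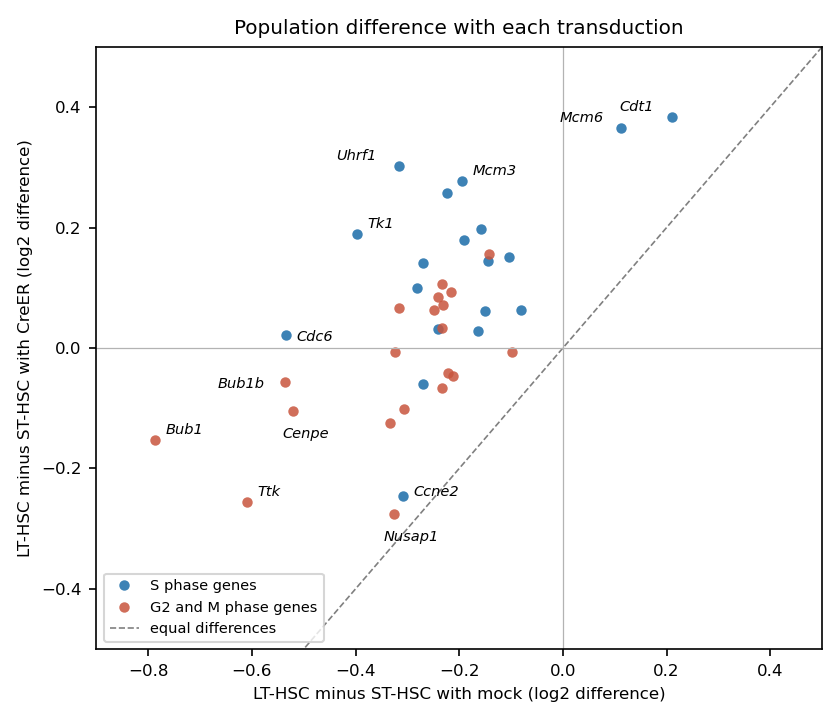
Each point is 1 gene: the x axis is its LT-HSC minus ST-HSC log2 difference with mock and the y axis the same difference with CreER, S phase genes in blue and G2 and M phase genes in red, and the dashed line marks equal differences. All 39 genes lie above the dashed line, against 48.9% of 10411 genes. That restates the larger CreER difference in LT-HSC-derived cells and is no separate observation. With mock the checkpoint genes Bub1 (-0.79) and Ttk (-0.61) lie furthest to the left, and with CreER Cdt1 (0.38) and Mcm6 (0.37) lie highest.

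Cell type markers differed between the same arrays. The summed signal of the progenitor and primary granule markers, on the log2 scale, was 15.57 on LT-HSC mock, the lowest, and 15.91 on ST-HSC mock, 15.90 on ST-HSC CreER and 16.05 on LT-HSC CreER. That sum follows its brightest members. Of the list's 8 genes, 5 were lowest on LT-HSC mock, against 28.1% of the 10411 genes above the floor on some array. Those 5 included Myb (11.27, 11.26, 11.24 and 11.75). Cd34 (7.87, 8.60, 9.69 and 10.82), Kit (10.20, 10.35, 10.60 and 10.67) and Ctsg (13.23, 13.17, 13.24 and 13.44) were instead higher on both LT-HSC arrays. Cd34 lay under the floor (8.08) on ST-HSC mock. The summed signal of the mast cell and basophil markers was 15.39 on LT-HSC mock and 15.13 with CreER. It was 13.09 and 13.68 on the ST-HSC mock and CreER arrays. Of these markers 8 of 8 were above the floor on both LT-HSC arrays and 5 and 7 on the ST-HSC arrays. For the monocyte and macrophage markers the sum was 14.95 on LT-HSC mock and 14.25 with CreER, and 15.01 and 14.73 on the ST-HSC mock and CreER arrays. The summed neutrophil maturation markers were lowest on LT-HSC mock (16.34) and highest on ST-HSC CreER (16.91), with 7 of 11 genes lowest on LT-HSC mock (28.1% of all genes). The others did not share that order: Cxcr2 (10.46, 12.10, 12.25 and 11.97) and Retnlg (10.47, 12.03, 12.28 and 11.50) were highest on LT-HSC mock, and Mmp9 (10.70, 12.75, 11.28 and 11.32) was lowest on ST-HSC mock, as were Cxcr2 and Retnlg. Summed eosinophil markers read 12.80, 13.96, 14.29 and 14.45, and megakaryocyte and platelet markers 11.63, 11.93, 13.31 and 13.54, both lowest on ST-HSC mock and highest on LT-HSC CreER. The part of cell composition in the differences of the cell cycle genes was not tested.

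Over all 4 arrays, an additive model fitted with limma, with terms for population and transduction, called 0 of 39 genes for CreER against mock at a Benjamini-Hochberg adjusted p of 0.05, as it called 0 of 10411 genes (0.0%). In that limma fit 3 of 39 had an unadjusted p under 0.05, against 10.1% of all genes: Cdc20 (0.29, SE 0.10, adjusted p = 0.441), Rrm2 (0.30, SE 0.11, adjusted p = 0.458) and E2f1 (0.34, SE 0.12, adjusted p = 0.468). All 3 were higher with CreER in both populations, an agreement that the fit favours because its residual is the gap between populations. For LT-HSC against ST-HSC the limma fit called 0 of 39 genes, against 6.27% of all genes, and 5 of 39 had an unadjusted p under 0.05, against 25.7%. The smallest adjusted p in limma was 0.103 for Ttk (-0.43, SE 0.12). Ttk was lower in LT-HSC-derived cells with both transductions, an agreement that the fit likewise favours. Cdt1 differed the other way (0.30, SE 0.10, adjusted p = 0.146). The model gives both populations the same CreER effect, so its 1 residual degree of freedom is the gap between their CreER differences. That gap had a median of 0.30 over the 39 genes and enters their standard errors. Each standard error also draws on the same spread over all 10411 genes, with 4.27 prior degrees of freedom. The p-values thus rest on spread between single arrays, of the gene and of all genes, which may be technical. They measure no replicate spread.

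Other genes of the replication and mitosis machinery were described from wider lists. Of 46 other replication genes 44 were measured, all past the floor. In CreER against mock of LT-HSC-derived cells 38 of 44 were above 0, the median being 0.24, and 13 were at least 25% higher, against 44.4% and 5.98% of all genes. Lig1, the ligase that joins Okazaki fragments, was higher by 0.50, Chaf1a, a histone chaperone of the fork, by 0.49, Rpa2, of the single-strand binding complex, by 0.43 and Clspn, a fork checkpoint mediator, by 0.42. Of the origin recognition genes 3 of 6 were above 0, near the share of all genes: Orc6, Orc1 and Orc3 were at 0.28, 0.27 and 0.11, and Orc2, Orc4 and Orc5 at -0.13, -0.11 and -0.11. In ST-HSC-derived cells 13 of 44 other replication genes were above 0, with a median of -0.04, against 42.6% and -0.03 for all genes.

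All 60 other mitosis genes were above 0 in CreER against mock of LT-HSC-derived cells, the median being 0.36, and 33 were at least 25% higher, against the same 44.4% and 5.98% of all genes. Anln, which encodes the cytokinesis scaffold anillin, was higher by 0.68, the spindle protein gene Tacc3 by 0.63, the chromosome motor gene Kif22 by 0.61 and the abscission gene Cep55 by 0.58. Anln read 10.95, 10.95, 10.27 and 10.95, so 3 arrays were equal to 2 decimals and LT-HSC mock stood below them. With mock, 51 of the 60 were lower in LT-HSC-derived than in ST-HSC-derived cells, against 54.9% of all genes, with Kif2c, a microtubule depolymerase, at -0.69. With CreER 30 of 60 were above 0, with a median of 0.01 (0.08 and 31 of 44 for other replication genes), against 46.1% and -0.02 for all genes; the mitosis count is near that share.

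Genes of G1 control and checkpoints differed less between the LT-HSC arrays. Of 23 genes, 18 were above 0 in CreER against mock of LT-HSC-derived cells, the median being 0.16 (44.4% of all genes), and 3 were at least 25% higher (5.98% of all genes), including Cdc25a, a phosphatase that activates Cdk2, at 0.56. Ccnd2, a D cyclin that starts G1 progression, read 10.97, 10.93, 11.92 and 11.94. It was thus higher in LT-HSC-derived cells by 0.96 with mock and 2-fold with CreER, and hardly differed between CreER and mock. Myc was also higher in LT-HSC-derived cells, by 0.60 and 0.57, while the checkpoint kinase gene Chek2 was lower, at -0.72 and -0.52. Ccnd1 was lower in LT-HSC-derived cells, at -0.23 with mock and -0.47 with CreER.

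**Figure D4:**
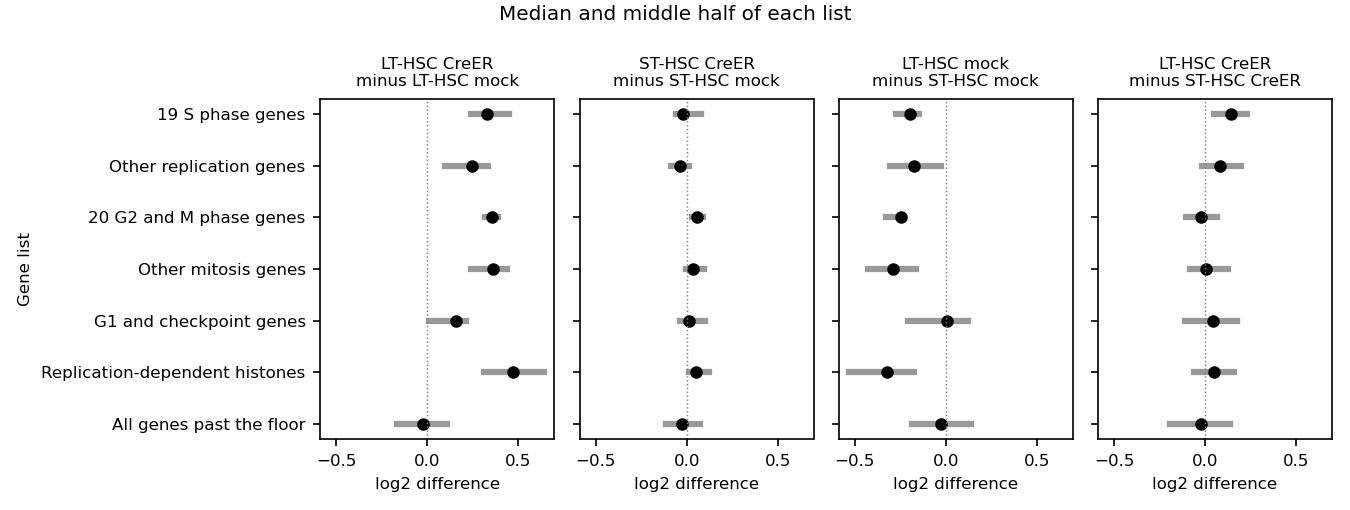
Points are list medians and grey bars the lower to upper quartile of each list, in log2 difference, for the 4 comparisons; the lists are the 19 S phase and 20 G2 and M phase genes, the wider replication, mitosis, G1 and histone lists, and all genes past the floor. For LT-HSC CreER minus LT-HSC mock the medians of the S phase (0.33), G2 and M phase (0.35) and other mitosis genes (0.36) lie well above that of all genes (-0.03), whereas for ST-HSC CreER minus ST-HSC mock all lists lie near 0.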

How the data were processed

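RNA of 4 samples was hybridised to 4 Affymetrix whole-transcript arrays, 1 per group, per the labels' protocols. Each deposited value is a log2 signal of a probe set, as its range (2.21 to 14.82) shows. Per the submitters' processing notes the authors used Affymetrix Expression Console; the sources used here do not give its settings. Column medians were near-equal (7.75 to 7.82), and the values were analysed as deposited. Of 35556 probe sets, 21789 had 1 symbol, 1621 several and 12146 none; only the first were named (19938 genes), and 21698 matched RefSeq (GRCm38.p6) by gene number.

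Pairwise values are log2 differences of 2 arrays, over genes above the floor on the higher array. limma 3.58.1 in R 4.3.3 (lmFit, eBayes; 4.27 prior degrees of freedom) fitted all genes past the floor; the steps were tested on simulated data. The members and lists were chosen with earlier results of these data known. All members could be named; from other lists, genes at least 2-fold apart and up to 4 with the largest differences to each side per comparison. Motifs, printed promoters, single marker genes and Orc1, Orc3 and Orc6 were chosen after the values were seen. Alternatives were quantile, cyclic loess and median scaling, no floor or one at the 75th percentile, the mean of probe sets, a trend in eBayes and an adjusted p of 0.1.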

Additional observations from a re-analysis of the deposited data

Results flagged for a closer look

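Some values went opposite ways, by at least 0.1 on the log2 scale, under the same contrast in the other population or transduction. With 1 array on each side these differences were not tested. The share of all genes that went opposite ways by at least 0.1 was not counted. Whatever the size, 13 of 39 members had CreER against mock above 0 from LT-HSC and below 0 from ST-HSC, against 2276 of 10411 genes. The reverse held for 0 of 39, against 2086 genes. LT-HSC against ST-HSC was below 0 with mock and above 0 with CreER for 23 of 39, against 1637 of 10411 genes. The reverse held for 0 of 39, against 1491 genes.

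CreER against mock was 0.36 for Mcm3 from LT-HSC but -0.11 from ST-HSC, and 0.53 but -0.11 for Bub1.

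LT-HSC against ST-HSC changed sign between mock and CreER for the S phase median (-0.20 with mock, 0.14 with CreER). Among helicase genes it did so for Mcm2 (-0.19 and 0.18), Mcm3 (-0.20 and 0.28), Mcm4 (-0.16 and 0.20) and Mcm7 (-0.22 and 0.26). Among other S phase genes it did so for Pcna (-0.14 and 0.14), Rrm1 (-0.27 and 0.14), Rrm2 (-0.10 and 0.15), Tk1 (-0.40 and 0.19), E2f1 (-0.28 and 0.10) and Uhrf1 (-0.32 and 0.30). Among G2 and M phase genes it did so for Mki67 (-0.23 and 0.11) and Cdk1 (-0.14 and 0.16). The G2 and M phase median did not reach this size with CreER. With each array centred on its median, the S phase median with CreER was 0.08, under that size, and 6 of the 12 genes still went opposite ways by at least 0.1 (Mcm2, Mcm3, Mcm4, Mcm7, Tk1 and Uhrf1); both genes of the CreER contrast did.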

How the results depend on the processing

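All 72 values of the phase medians and their gaps kept their direction and moved by less than 0.1 under the 6 scaling, floor and probe set alternatives. The LT-HSC CreER minus LT-HSC mock medians ran from 0.30 to 0.36 for S phase and 0.32 to 0.38 for G2 and M phase genes. Of 72 counts of members past a fold, 70 stayed within 1.5 times, but most of these were 0 throughout. The 25 members at least 25% higher in LT-HSC CreER minus LT-HSC mock became 18 with centred arrays and 28 under quantile normalization. The share of all genes above 0 in this comparison moved as well, from 44.4% to 38.5% with centred arrays and 50.7% under quantile normalization. Shares of all genes past a fold were not counted under the alternatives. The 9 members at least 20% lower in LT-HSC mock minus ST-HSC mock became 6 under cyclic loess and 13 with centred arrays. For LT-HSC CreER minus ST-HSC CreER, centring each array on its median gave 0 members at least 25% higher and 2 at least 20% lower, against 2 and 0 as reported; centring moves all differences by a constant. No member was called in the limma fit under any of its 8 alternatives, with p adjusted over all genes. No replicate could be left out and no paired analysis was possible because each group has 1 array, and 1 array a group limits how precise any value is.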

Other observations

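Replication-dependent histone genes, transcribed in S phase, were mostly lowest on LT-HSC mock (24 of 26, with 2 lowest on LT-HSC CreER). The share was 28.1% of the 10411 genes above the floor on some array, whereas the 26 include genes under the floor. Their highest array varied: LT-HSC CreER for 13 (20.8% of the 10411), ST-HSC CreER for 8 (23.3%), ST-HSC mock for 4 (27.2%) and LT-HSC mock for 1 (28.6%). Of 26 named ones, 22 passed the floor in CreER against mock of LT-HSC-derived cells, of which 20 were above 0, with a median of 0.47, against 44.4% and -0.03 for all genes. H3c15 was higher by 1.37, the only one of the 22 at least 2-fold apart, against 0.875% of all genes. It read 8.88, 9.58, 7.21 and 8.59, and so lay under the floor on LT-HSC mock. H2bc8 was higher by 0.86, H2ac4 by 0.76 and the linker histone gene H1f1 by 0.74, whereas H2bc4 was at -0.56. H1f1 read 11.66, 11.69, 11.13 and 11.87, with LT-HSC mock below the other arrays. With mock, 21 of 22 were lower in LT-HSC-derived than in ST-HSC-derived cells (median -0.33; 54.9% of all genes), and with CreER 12 of 23 were above 0 (median 0.05), near the 46.1% of all genes. In ST-HSC-derived cells the CreER median was 0.05. Near-identical copies of histone genes share probes, so single genes are uncertain, and probe sets with several symbols were left out.

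A split among the mitotic genes was noticed after the values were seen. Of the G2 and M phase genes with a promoter in the table, the 7 with a CHR word had LT-HSC minus ST-HSC differences with mock of -0.24 to -0.10, and the 9 without had -0.79 to -0.25, a split that rests on 0.01 between Kif11 (-0.24) and Cenpf (-0.25) on single arrays. The medians were -0.22 and -0.33. The groups also differed in signal, with median levels of 11.74 and 10.59. Among 51 other mitosis genes with a promoter the split was not seen: the medians were -0.29 for 20 genes with the word and -0.28 for 31 without.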
